A study of Mus musculus with 9 samples.

Results

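The 37 genes described here encode the effectors of the type I interferon response, the proteins that act on nucleic acid and virus once interferon has been sensed. They were taken as a list of known interferon-stimulated genes, in 9 subgroups by function, from the 53458 genes measured in conventional type 1 dendritic cells (cDC1) of mouse lymph nodes beside the pancreas. All 37 passed the filter on low counts, as did 24133 genes in all. The 9 RNA libraries, made from total RNA, carry 1 of 3 neoplasia stages in their labels, with 3 libraries each: Healthy, PanIN (for pancreatic intraepithelial neoplasia, the lesion that precedes carcinoma) and Tumor, the state of the pancreas that the node drained. The series title names KPC, a genetic mouse model of pancreatic cancer; the alleles, strain, age and sex of the mice, whether the Healthy mice carried any of the alleles, and whether a library is 1 animal or a pool could not be read from the labels. The p-values below therefore reflect no more than how these 9 libraries vary, and part of that variation may be technical.

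Type I interferons are secreted when a cell senses foreign or misplaced nucleic acid. They bind a receptor made of Ifnar1 and Ifnar2, and a complex with Stat2 and Irf9 that forms downstream binds interferon-stimulated response elements in promoters and turns on the effector genes. In cDC1, the dendritic cells that present captured antigen to cytotoxic T cells, type I interferon sensing is known to be needed for strong priming against tumors.

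Libraries held 32150281 to 68934430 estimated counts. Defining genes of cDC1 were high in all 9: Xcr1 ran between 249 and 1080 CPM (counts scaled to library size), Clec9a between 177 and 669, and Irf8 between 1030 and 3330. The Healthy libraries stood apart from each other, with Ccr7, the chemokine receptor of mature dendritic cells, at 1270, 57.2 and 419 CPM in Healthy 1, 2 and 3. The 3 libraries numbered 1 in each stage share a code in their titles, and all values below are given in the order of libraries 1, 2 and 3. In bulk RNA like this, fewer cells of a type and less RNA per cell cannot be told apart.

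The interferon-stimulated response element has the core GAAA, any 2 bases, GAAA. The core was searched on either strand, with overlapping copies counted, in the 250 bases before each start site in RefSeq's promoter windows (GRCm38.p6). Of the 37 genes, 26 had a window, and 12 of these held the core (46.2%), against 936 of all 27025 genes with a window (3.46%). The 12 genes held 21 copies, 12 to 188 bases before the start and 18 of them within 150 bases. A match is a description of these letters and not a measured binding site. The 7 stretches below are shown because their genes carry the contrast described below, with Isg15 and Rsad2 high in Tumor, the next 4 highest in PanIN and nearer to Healthy in Tumor, and Bst2 highest in Tumor. Each is read along the strand of its gene, with the core copies in capitals (TTTC forms are the core on the other strand).
Isg15, chr4:156200830-156200941, minus strand: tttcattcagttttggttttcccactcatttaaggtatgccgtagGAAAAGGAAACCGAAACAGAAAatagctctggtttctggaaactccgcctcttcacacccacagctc
Rsad2, chr12:26456518-26456617, minus strand: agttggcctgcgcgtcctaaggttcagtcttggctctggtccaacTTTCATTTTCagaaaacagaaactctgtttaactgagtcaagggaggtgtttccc
Oas3, chr5:120777680-120777779, minus strand: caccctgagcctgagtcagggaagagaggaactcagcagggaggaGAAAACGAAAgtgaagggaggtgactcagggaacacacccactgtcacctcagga
Oas1a, chr5:120907526-120907590, minus strand: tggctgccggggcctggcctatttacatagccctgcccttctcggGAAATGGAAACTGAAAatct
Ifit3, chr19:34583328-34583461, plus strand: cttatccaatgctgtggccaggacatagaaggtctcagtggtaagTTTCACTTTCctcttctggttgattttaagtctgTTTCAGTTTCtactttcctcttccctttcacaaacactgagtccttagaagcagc
Ifi203, chr1:173942493-173942572, minus strand: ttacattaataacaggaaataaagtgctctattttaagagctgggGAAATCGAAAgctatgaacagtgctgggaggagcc
Bst2, chr8:71537542-71537647, minus strand: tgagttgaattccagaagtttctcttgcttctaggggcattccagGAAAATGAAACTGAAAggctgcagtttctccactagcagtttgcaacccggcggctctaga
Isg15 held 3 overlapping copies, Oas1a, Ifit3 and Bst2 held 2 each, and Rsad2, Oas3 and Ifi203 held 1 each. Among the 10 genes that met the rule for staying high in Tumor, given below, 6 had a window and 2 of them held the core. Among the others, 20 had a window and 10 held it.

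Every one of the 37 genes had a higher fitted level in PanIN than in Healthy, and 35 had their highest mean in PanIN. The median log2 fold change of the 37 was 1.18 in PanIN against Healthy (0.25 to 2.84), where the median of all genes was -0.10. A log2 fold change above 0 was found in 42.5% of all genes. In 27 of the 37, all 3 PanIN libraries lay above all 3 Healthy libraries, against 7.4% of all genes (the reverse held for 0 of the 37, against 4.81%), and 26 had an unadjusted p under 0.05 in that direction, against 4.82%. The mean log2 CPM over the 37 genes was 3.67, 3.81 and 3.33 in the Healthy libraries, 4.40, 5.20 and 5.14 in the PanIN libraries, and 4.08, 4.09 and 4.05 in the Tumor libraries. PanIN 1 was thus the lowest PanIN library, still above all Healthy and Tumor libraries, and the Tumor libraries lay close together between the other stages.

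**Figure D1:**
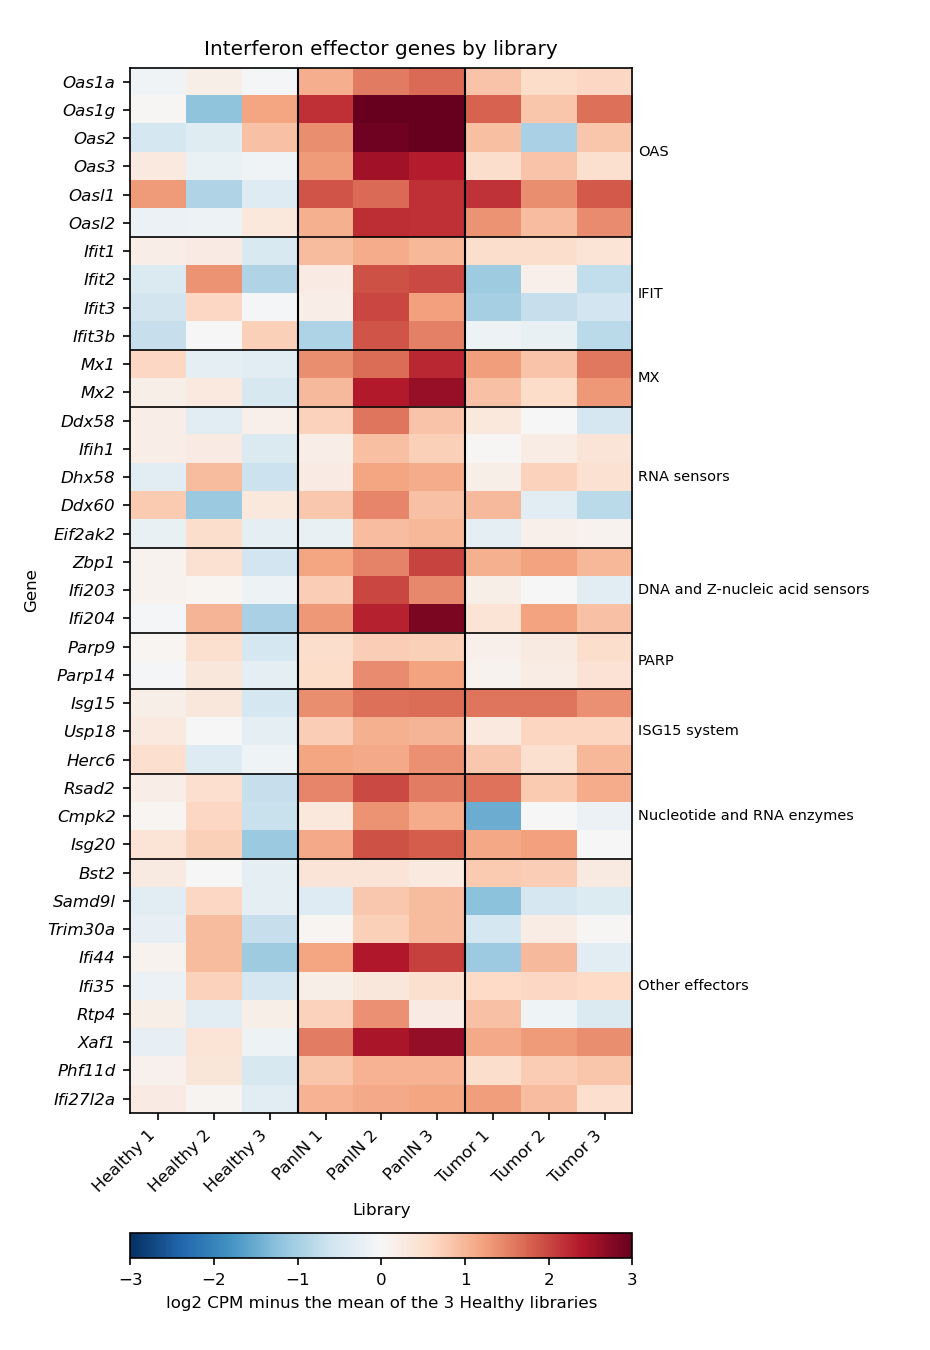
Level of each of the 37 genes (rows, grouped by subgroup) in each library (columns), as log2 CPM minus the mean of the 3 Healthy libraries; red is higher and blue lower. The PanIN columns are red for nearly all genes, most deeply in PanIN 2 and PanIN 3. In the Tumor columns OAS, MX and ISG15 system genes are mostly red, but Oas2 is blue in Tumor 2. Most IFIT genes there are pale or blue (the scale ends at 3, and larger values take its deepest colour).

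No single gene passed the test across all genes. With edgeR's quasi-likelihood test and Benjamini-Hochberg adjustment over 24133 genes, 0 of the 37 were called in PanIN against Healthy (smallest adjusted p 0.236), where no gene at all was called (0%). In Tumor against Healthy 0 of the 37 were called (smallest adjusted p 0.123), against 4 higher genes of all (0.0166%) and 2 lower (0.00829%). In Tumor against PanIN 0 were called (0.667 for Ifi203 and 1 for every other), against 1 higher gene of all (0.00414%) and 2 lower (0.00829%). For any difference among the 3 stages 0 were called (smallest adjusted p 0.143, all genes 0.0207%) and 27 had an unadjusted p under 0.05 (all genes 13.4%). DESeq2 called 17 of the 37 higher in PanIN than in Healthy (all genes with an adjusted p 0.76%), 8 higher in Tumor than in Healthy (all genes 3.42%), and 3 lower in Tumor than in PanIN (Oas3, Ifit3 and Ifi203; all genes 0.0791%). The edgeR calls also turned on single libraries. For any difference, 18 of the 37 were called without Healthy 2 (all genes 5.31%), 3 without PanIN 1 (all genes 0.054%) and 1 (Oasl1) without Healthy 1 (all genes 0.0427%). With all libraries but no filter on low counts 18 were called, against 2.32% of all genes. Between pairs of stages, that fit called 13 of the 37 higher in PanIN than in Healthy (108 of all 36907 genes). It called 7 higher in Tumor than in Healthy (361 of all) and Ifi203 alone lower in Tumor than in PanIN (19 of all). In PanIN against Healthy, leaving out Healthy 2 or PanIN 1 called Xaf1 alone of the 37 as higher (all genes 0.0117% and 0.00386%), and leaving out Healthy 1 called Oasl1 alone (all genes 0.0155%). In Tumor against Healthy, 6 were called higher without Healthy 2 (Zbp1, Isg15, Rsad2, Ifi35, Xaf1 and Phf11d; all genes 1.94%) and Oasl1 alone without Healthy 1 (all genes 0.128%).

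Tumor lay between Healthy and PanIN for most of the genes. Against Healthy, 26 of the 37 were above 0 in fitted log2 fold change (43.5% of all genes) and 11 below (56.5%), with a median of 0.52 (-0.83 to 1.53; all genes -0.11). All 3 Tumor libraries lay above all 3 Healthy ones in 14 genes (9.02% of all genes) and below them in 2, Ifit3 and Samd9l (9.06%). An unadjusted p under 0.05 was found for 13 genes higher in Tumor (6.82%) and for none lower (11%). Against PanIN, 35 of the 37 were below 0 (54.2% of all genes) and 2, Bst2 and Ifi35, above it (45.8%), with a median of -0.67 (-2.27 to 0.26; all genes -0.05). All 3 Tumor libraries lay below all 3 PanIN ones in 18 genes (7.26%) and above them in 1, Ifi35 (8.33%), and 16 genes had an unadjusted p under 0.05 in the lower direction (2.52%). The comparisons of PanIN and of Tumor with Healthy share the Healthy libraries, and those with PanIN share the PanIN libraries, so they are not independent of each other. All 3 PanIN libraries lay above all 6 others in 14 of the 37 genes, against 0.961% of all genes.

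To say which genes stay high in Tumor, a gene had to have all 3 Tumor libraries above all 3 Healthy libraries and a Tumor mean log2 CPM nearer to the PanIN mean than to the Healthy mean, or above it. This rule was met by 10 genes: Oasl1, Oasl2, Mx1, Zbp1, Isg15, Usp18, Rsad2, Xaf1, Phf11d and Ifi27l2a, where 8.95% of all genes did. By subgroup these were 2 of the 6 OAS genes, 1 of 2 MX genes, 1 of 3 DNA and Z-nucleic acid sensors, 2 of 3 genes of the ISG15 system, 1 of 3 nucleotide and RNA enzymes and 3 of the 9 other effectors. No IFIT gene (of 4), RNA sensor (of 5) or PARP gene (of 2) met it. Usp18 was just inside the rule, with its lowest Tumor library at 54.3 CPM against 54.2 CPM in the highest Healthy library, and Bst2 just outside, at 69.4 CPM in Tumor against 69.7 CPM in Healthy. Oasl1, Zbp1, Isg15 and Ifi27l2a met the rule in all 12 settings tried. On log2(TPM + 1), a scale per transcript length, 5 genes met it: these 4 and Bst2. Leaving out 1 library moved the count to between 9 and 15, with 15 without Healthy 2.

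**Figure D2:**
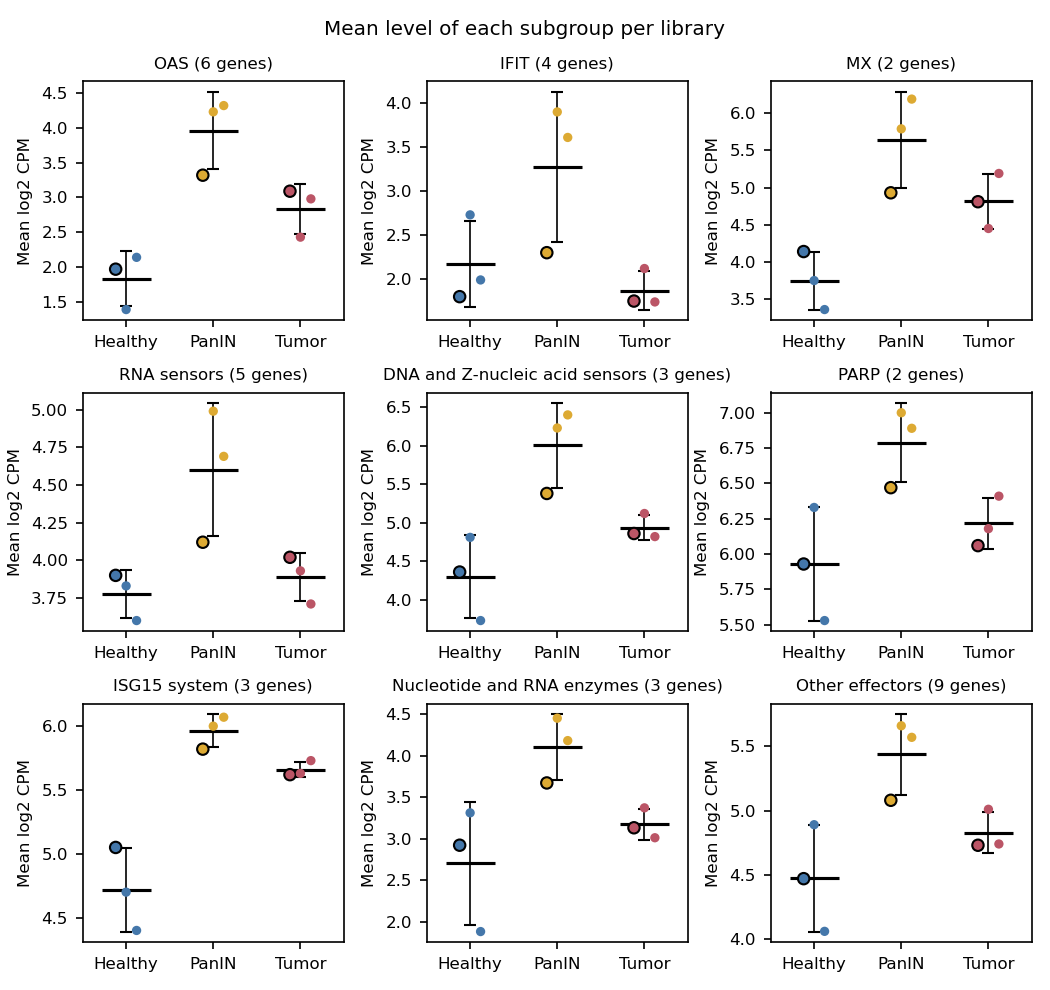
Mean log2 CPM over the genes of each subgroup in each library (points), with the mean (bar) and SD over the 3 libraries of a stage; black outlines mark the 3 libraries that share a title code. PanIN is highest in all 9 subgroups; Tumor lies above Healthy in the ISG15 system (5.66 ± 0.06 against 4.72 ± 0.33) and at or below it in the IFIT genes (1.87 ± 0.22 against 2.17 ± 0.49).

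The active enzymes of the OAS family make short oligoadenylates on contact with double-stranded RNA, which switch on the RNA-cutting enzyme RNase L. All 6 genes of the subgroup were higher in PanIN than in Healthy without overlap, against 7.4% of all genes. Their median log2 fold change was 2.02, the largest of the 9 subgroup medians. In Tumor the family divided. Oas3 stood at 7.59, 5.38 and 5.72 CPM in Healthy, 14.9, 35.5 and 31.9 CPM in PanIN, and 8.84, 11.2 and 8.65 CPM in Tumor. The 3 stages did not overlap, and Tumor lay near the Healthy range. The log2 fold change of Oas3 was 2.14 ± 0.35 (SE) in PanIN against Healthy (adjusted p = 0.238), 0.62 ± 0.34 in Tumor against Healthy (0.366) and -1.52 ± 0.34 in Tumor against PanIN (1, 3 of 3 Tumor libraries lower). Oas2 stood at 0.93, 1.05 and 2.52 CPM in Healthy, 3.67, 10.5 and 13.2 CPM in PanIN, and 2.55, 0.665 and 2.48 CPM in Tumor, so that Tumor overlapped Healthy and lay below every PanIN library. Its log2 fold change in Tumor against PanIN, -2.27 ± 0.65, was the lowest of the 37.

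Oasl1 and Oasl2, the OAS-like members, behaved differently from Oas2 and Oas3 in Tumor. Oasl1, which in mouse is known to hold back the translation of Irf7, stood at 33.8, 7.35 and 10.7 CPM in Healthy, 51.2, 45.1 and 62.9 CPM in PanIN, and 62.8, 36.8 and 49.9 CPM in Tumor. The Tumor and PanIN ranges overlapped, and Tumor lay above every Healthy library, of which Healthy 1 was the nearest. The log2 fold change of Oasl1 was 1.62 ± 0.46 in PanIN (adjusted p = 0.439) and 1.53 ± 0.46 in Tumor (0.168), each against Healthy, the Tumor value being the highest of the 37, and -0.09 ± 0.45 in Tumor against PanIN. Oasl2 stood at 5.46, 5.62 and 7.79 CPM in Healthy, 13.0, 28.8 and 28.6 CPM in PanIN, and 15.8, 11.8 and 16.8 CPM in Tumor, with Tumor above every Healthy library and overlapping PanIN 1 only. Oas1a averaged 6.56 ± 0.712 CPM in Healthy, 18.3 ± 3.79 CPM in PanIN and 10.5 ± 1.17 CPM in Tumor (SD, n = 3 each), with no overlap between stages. Oas1g was the lowest of the family in counts, at 0.462 ± 0.38, 3.40 ± 1.40 and 1.10 ± 0.359 CPM in Healthy, PanIN and Tumor, and had the largest log2 fold change of the 37 in PanIN against Healthy, 2.84 ± 0.72. The 6 genes lie in a pair of stretches of chromosome 5, Oasl2 and Oasl1 with starts at 114896936 and 114923240, and Oas2, Oas3, Oas1g and Oas1a with starts between 120730333 and 120896256 (GRCm38, GENCODE M21).

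The IFIT proteins bind foreign RNA through its unusual ends and block its translation. Their 4 genes were higher in PanIN than in Healthy, with a median log2 fold change of 1.19. Only Ifit1 was higher without overlap, against 7.4% of all genes. In Tumor 3 of 4 had a mean below the Healthy mean, and the subgroup median was -0.65 against Healthy, the lowest of the 9 subgroups, and -1.84 against PanIN, also the lowest. Ifit3 stood at 2.82, 6.38 and 3.96 CPM in Healthy, 4.75, 16.7 and 9.78 CPM in PanIN, and 2.06, 2.57 and 2.75 CPM in Tumor. All Tumor libraries lay below all libraries of both other stages, and PanIN 1 lay inside the Healthy range. Ifit3 had a log2 fold change of 1.25 ± 0.48 in PanIN against Healthy (adjusted p = 0.457), -0.83 ± 0.48 in Tumor against Healthy (0.397) and -2.08 ± 0.49 in Tumor against PanIN (1).

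Ifit2 stood at 12.7, 43.6 and 9.11 CPM in Healthy, 20.5, 64.2 and 67.8 CPM in PanIN, and 8.13, 19.1 and 10.3 CPM in Tumor. Healthy 2 was far above the other Healthy libraries and above PanIN 1. Without Healthy 2 the log2 fold change of Ifit2 in Tumor against Healthy was 0.21, against -0.80 with it, and the median of the 4 genes was -0.13; without Healthy 2 and Healthy 3 together that median was 0.14. Ifit1, by contrast, stood at 5.64, 5.90 and 3.57 CPM in Healthy, 9.59, 10.7 and 9.94 CPM in PanIN, and 7.12, 7.10 and 6.54 CPM in Tumor, and its 3 stages did not overlap. Ifit3b, at 0.567 to 4.28 CPM over the 9 libraries, overlapped between all stages. All 4 genes lie in one stretch of chromosome 19, with starts between 34550694 and 34640871.

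The MX proteins are dynamin-like GTPases that trap viral ribonucleoproteins; many laboratory mouse strains are known to carry inactive Mx1 and Mx2 alleles, and the strain is not given here. Mx1 stood at 74.3, 39.7 and 38.9 CPM in Healthy, 127, 157 and 234 CPM in PanIN, and 115, 87.5 and 145 CPM in Tumor. Tumor lay above every Healthy library and overlapped PanIN, with Healthy 1 the highest of its stage. The fold change of Mx1 on the log2 scale was 1.76 ± 0.33 in PanIN against Healthy (adjusted p = 0.238), 1.18 ± 0.32 in Tumor against Healthy (0.168) and -0.58 ± 0.32 in Tumor against PanIN (1). Mx2 stood at 4.16, 4.54 and 2.65 CPM in Healthy, 7.32, 19.4 and 22.7 CPM in PanIN, and 6.80, 5.39 and 9.10 CPM in Tumor. Its Tumor libraries lay above all Healthy ones, as for Mx1, but nearer to them than to PanIN 2 and PanIN 3. The pair lies on chromosome 16, with starts at 97447035 and 97535308.

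The RNA sensors differed little between Tumor and Healthy. They are Ddx58 (RIG-I), Ifih1 (MDA5) and Dhx58 (LGP2), helicases that detect foreign RNA, the related helicase Ddx60, and Eif2ak2 (PKR), the kinase that stops translation on double-stranded RNA. Their median log2 fold change was 0.73 in PanIN against Healthy, the lowest of the 9 subgroups, and -0.04 in Tumor against Healthy, with 2 genes above 0 and 3 below. Ddx58 stood at 7.35, 5.04 and 7.12 CPM in Healthy, 10.4, 19.7 and 11.8 CPM in PanIN, and 8.03, 6.49 and 4.51 CPM in Tumor. It lay higher in every PanIN library than in any other library, and its Tumor and Healthy ranges overlapped. Ifih1 averaged 30.3 ± 7.30, 46.0 ± 10.8 and 34.7 ± 4.11 CPM in Healthy, PanIN and Tumor, and Eif2ak2 averaged 41.2 ± 14, 63.0 ± 25.1 and 40.0 ± 6.40 CPM, with overlap in every comparison for both. Dhx58 stood at 59.8 CPM in Healthy 2, against 24.7 and 19.6 CPM in Healthy 1 and Healthy 3, and averaged 57.5 ± 18.3 CPM in PanIN and 42.1 ± 7.69 in Tumor. Ddx60, the lowest of the 37 per transcript length (0.413 TPM over all libraries), had log2 fold changes of 0.89 ± 0.60 in PanIN and -0.04 ± 0.60 in Tumor, each against Healthy. The direction of Tumor against Healthy was not stable for Ddx58, Ifih1 and Ddx60: on log2(TPM + 1) their differences were 0.24, -0.21 and 0.13, against -0.04, 0.20 and -0.04 in counts.

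Of the DNA and Z-nucleic acid sensors, Zbp1 stayed high in Tumor and Ifi203 did not. Zbp1, which binds left-handed nucleic acid and starts necroptosis, stood at 23.5, 29.7 and 14.5 CPM in Healthy, 48.8, 60.5 and 88.5 CPM in PanIN, and 45.5, 50.1 and 42.9 CPM in Tumor. Every Tumor library lay above every Healthy library, and Tumor overlapped PanIN 1. The log2 fold change of Zbp1 was 1.55 ± 0.29 in PanIN (adjusted p = 0.238) and 1.04 ± 0.29 in Tumor (0.168), each against Healthy. Ifi203, a mouse protein of the Aim2-like family, stood at 36.9, 36.0 and 30.8 CPM in Healthy, 57.7, 139 and 94.0 CPM in PanIN, and 38.7, 35.1 and 27.7 CPM in Tumor. The Tumor and Healthy ranges overlapped, and every PanIN library lay above both. Its log2 fold changes were 1.49 ± 0.29 in PanIN against Healthy (adjusted p = 0.238), -0.03 ± 0.29 in Tumor against Healthy (0.977) and -1.52 ± 0.29 in Tumor against PanIN (0.667), the smallest adjusted p of the 37 in that last comparison. Ifi204, which also lies on chromosome 1, averaged 11.9 ± 7.93, 49.5 ± 23.7 and 18.7 ± 5.03 CPM in Healthy, PanIN and Tumor, with PanIN above every other library.

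**Figure D3:**
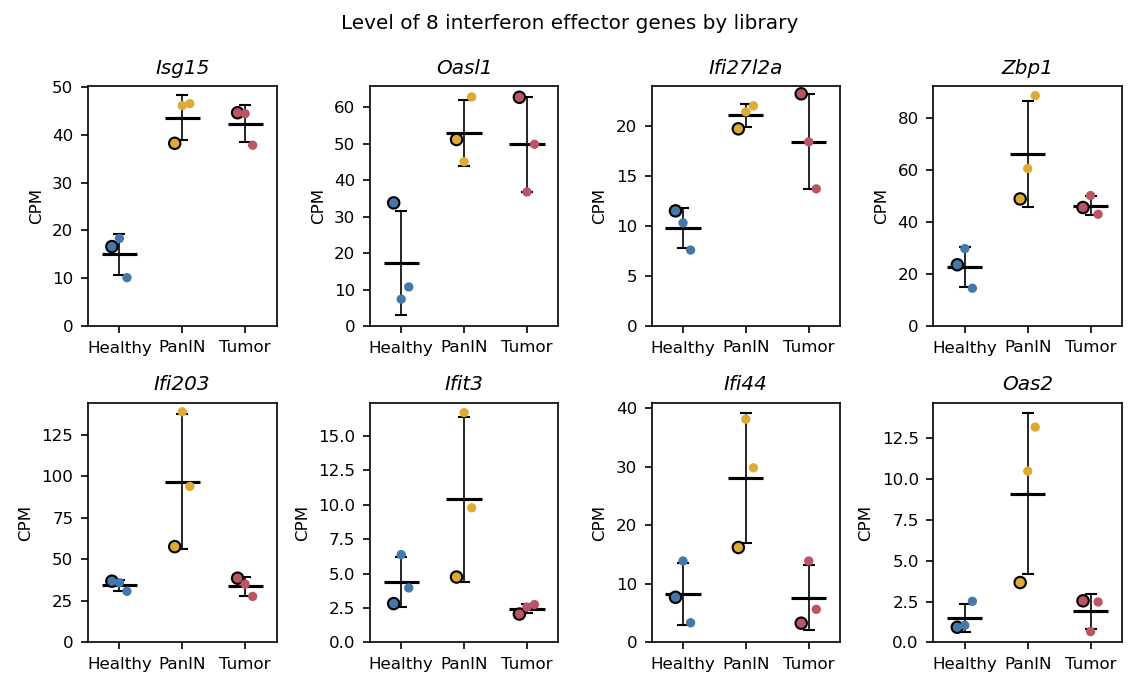
CPM of 8 genes in each library (points, black outlines for the shared title code), with mean (bar) and SD (n = 3 per stage); each axis starts at 0. Isg15, Oasl1, Ifi27l2a and Zbp1 (top) have every Tumor library above every Healthy library, and in Ifi203, Ifit3, Ifi44 and Oas2 (bottom) every Tumor library lies below every PanIN library.

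Parp9 and Parp14 belong to the PARP family, whose active members add ADP-ribose to proteins, and act in interferon signalling and antiviral defence. Parp14 stood at 58.6, 76.9 and 50.8 CPM in Healthy, 90.3, 163 and 142 CPM in PanIN, and 66.4, 71.9 and 82.8 CPM in Tumor. Tumor lay below every PanIN library and overlapped Healthy. Its log2 fold change was 1.08 ± 0.26 in PanIN (adjusted p = 0.312) and 0.25 ± 0.26 in Tumor (0.681), each against Healthy. Parp9 averaged 62.8 ± 20.8, 95.5 ± 7.53 and 75.9 ± 10.2 CPM in Healthy, PanIN and Tumor, with only PanIN free of overlap with Healthy.

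In the ISG15 system all 3 genes were higher with an unadjusted p under 0.05 in Tumor against Healthy as in PanIN against Healthy. Of all genes, 6.82% and 4.82% were. Isg15, the ubiquitin-like protein that cells attach to other proteins under interferon, stood at 16.6, 18.3 and 10.1 CPM in Healthy, 38.2, 46.1 and 46.5 CPM in PanIN, and 44.6, 44.4 and 37.8 CPM in Tumor. The PanIN and Tumor ranges nearly coincided, and both lay wholly above Healthy. Its log2 fold change was 1.54 ± 0.25 in PanIN against Healthy (adjusted p = 0.238), 1.50 ± 0.25 in Tumor against Healthy (0.123, the smallest of the 37 there) and -0.04 ± 0.25 in Tumor against PanIN (1). Usp18, which strips ISG15 from its targets and damps the interferon receptor, averaged 44.8 ± 9.13, 85.1 ± 10.3 and 64.4 ± 8.72 CPM in Healthy, PanIN and Tumor, with no overlap between stages. Herc6, the main ISG15 ligase of the mouse, averaged 29.1 ± 9.73, 66.1 ± 5.77 and 48.3 ± 8.80 CPM, and its Tumor range, 39.1 to 56.6 CPM, overlapped Healthy by Healthy 1 alone (40.1 CPM).

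Among the nucleotide and RNA enzymes, 2 genes that lie close together differed in Tumor. Rsad2 (viperin), which makes a chain-terminating nucleotide, stood at 9.10, 11.3 and 4.93 CPM in Healthy, 22.1, 31.2 and 23.0 CPM in PanIN, and 24.8, 13.8 and 17.2 CPM in Tumor. All Tumor libraries lay above all Healthy libraries, and Tumor 1 lay inside the PanIN range. Rsad2 had a log2 fold change of 1.60 ± 0.35 in PanIN (adjusted p = 0.260) and 1.14 ± 0.34 in Tumor (0.168), each against Healthy. Cmpk2, a mitochondrial nucleotide kinase that lies close to it on chromosome 12 (starts at 26442746 for Rsad2 and 26469204 for Cmpk2), stood at 8.63, 12.7 and 5.17 CPM in Healthy, 10.3, 21.1 and 17.9 CPM in PanIN, and 2.89, 8.17 and 7.37 CPM in Tumor. Cmpk2 was lower in every Tumor library than in any PanIN library and overlapped Healthy. Isg20, an RNA exonuclease, averaged 4.68 ± 2.51, 13.1 ± 3.53 and 7.66 ± 3.13 CPM in Healthy, PanIN and Tumor, with PanIN above every Healthy library and Tumor overlapping both.

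The other 9 effectors ranged from the gene with the smallest p in PanIN to genes that barely differed. Xaf1, which promotes cell death by opposing an inhibitor of apoptosis, stood at 7.59, 11.8 and 8.04 CPM in Healthy, 26.0, 49.4 and 55.6 CPM in PanIN, and 19.7, 21.6 and 23.5 CPM in Tumor. The 3 stages did not overlap. Xaf1 had a log2 fold change of 2.26 ± 0.31 in PanIN against Healthy (adjusted p = 0.236, the smallest of the 37), 1.24 ± 0.30 in Tumor against Healthy (0.168) and -1.02 ± 0.30 in Tumor against PanIN (1). Ifi27l2a stood at 11.5, 10.3 and 7.58 CPM in Healthy, 19.7, 21.4 and 22 CPM in PanIN, and 23.2, 18.4 and 13.7 CPM in Tumor, with Tumor on both sides of PanIN and wholly above Healthy. Phf11d averaged 21.7 ± 6.10, 41.5 ± 3.14 and 34.5 ± 3.67 CPM in Healthy, PanIN and Tumor, with no overlap between stages.

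Ifi44 stood at 7.70, 13.9 and 3.35 CPM in Healthy, 16.2, 38.1 and 29.8 CPM in PanIN, and 3.28, 13.9 and 5.65 CPM in Tumor, so that Tumor matched the Healthy range and PanIN lay above both. Samd9l, an antiviral protein that slows cell growth, averaged 83.1 ± 33.0, 118 ± 50.3 and 49.9 ± 13.9 CPM in Healthy, PanIN and Tumor. All 3 Tumor libraries of Samd9l, at 34, 55.8 and 60.0 CPM, lay below all Healthy libraries, the lowest of which held 63.9 CPM. Bst2 (tetherin), which holds budding virus at the cell surface, stood at 69.7, 58.2 and 47.5 CPM in Healthy, 74.8, 75.7 and 71.1 CPM in PanIN, and 99.6, 96.9 and 69.4 CPM in Tumor. Bst2 and Ifi35 were the 2 genes with their highest mean in Tumor, and Ifi35 averaged 78.5 ± 35.2, 93.4 ± 9.66 and 112 ± 0.959 CPM in Healthy, PanIN and Tumor. That order turned on the scale: on log2(TPM + 1) Tumor minus PanIN was -0.21 for Bst2 and -0.07 for Ifi35, against 0.26 for each in counts. Trim30a was high in Healthy 2 (322 CPM, against 140 and 102 CPM in Healthy 1 and 3) and averaged 254 ± 75.4 CPM in PanIN and 160 ± 41.0 in Tumor. Rtp4 averaged 1.72 ± 0.334, 3.10 ± 1.26 and 1.99 ± 1.04 CPM in Healthy, PanIN and Tumor, and every PanIN library lay above every Healthy library.

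**Figure D4:**
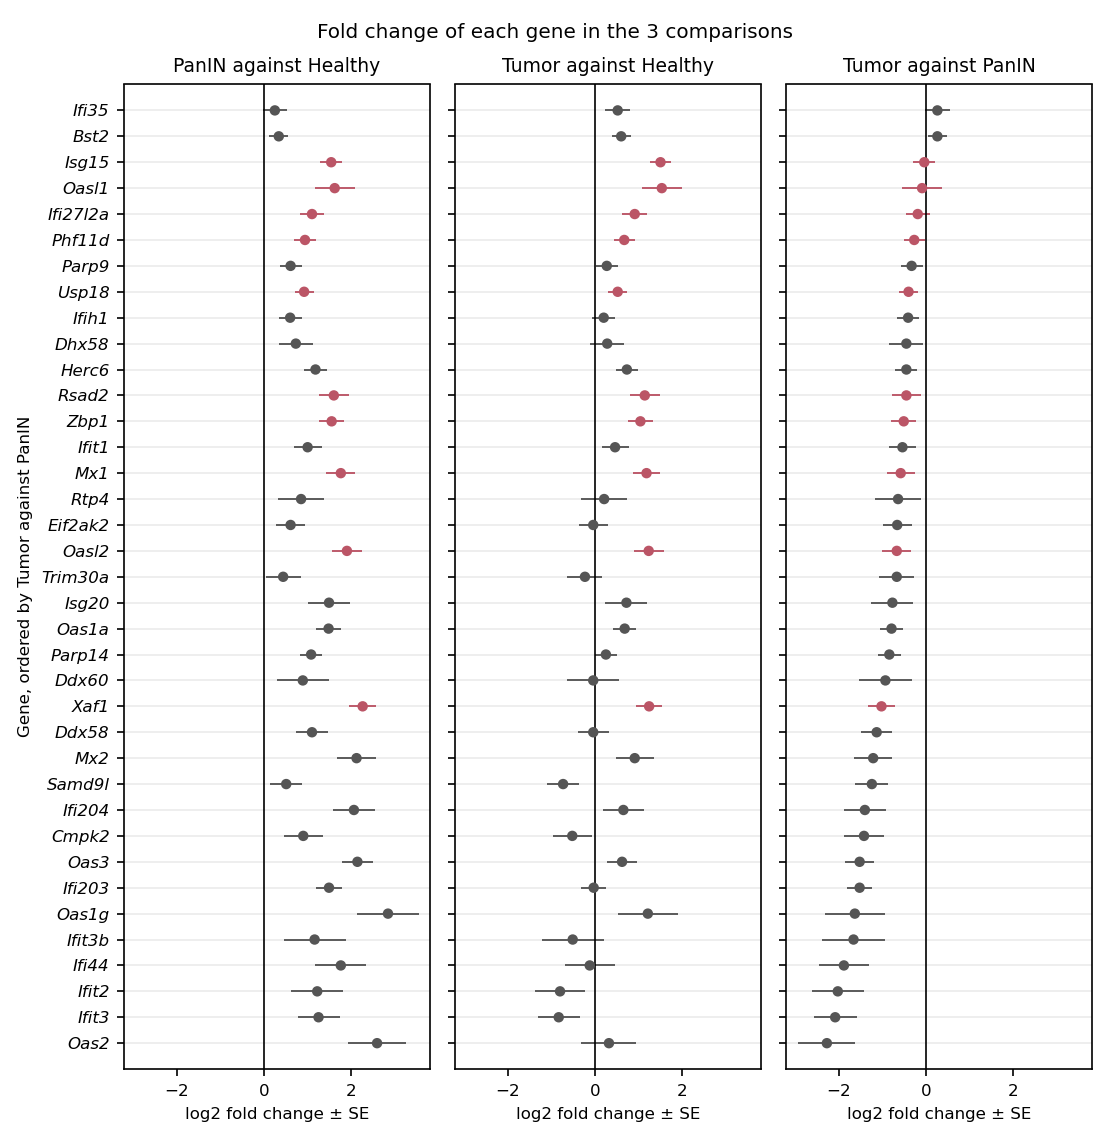
log2 fold change with its SE for each gene in the 3 comparisons, ordered by Tumor against PanIN, with the 10 genes that met the rule for staying high in Tumor in red. Points lie right of 0 for all 37 genes in PanIN against Healthy (0.25 to 2.84) and left of 0 for 35 in Tumor against PanIN, lowest for Oas2, Ifit3 and Ifit2.

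Per transcript length, which allows genes to be set side by side, Bst2 (71.2 TPM over all 9 libraries), Trim30a (60.7), Ifi35 (47.0), Mx1 (46.6), Ifi27l2a (42.5) and Isg15 (35.0) had the highest mean levels of the 37. Ddx60 (0.413), Ifit3b (0.612) and Oas2 (0.848) had the lowest. In TPM, Isg15 averaged 14.2 ± 4.15, 51.4 ± 8.21 and 39.5 ± 1.23 in Healthy, PanIN and Tumor, and Mx1 averaged 19.0 ± 8.39, 87.5 ± 38.3 and 33.2 ± 15.6.

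Some of the levels rest on transcripts that the quantifier had to share out between similar genes. Of the 31-base words in the longest transcript, 68.8% of those of Oas1a and 65.4% of those of Oas1g also occur in another gene, as do 61.8% for Ifit3, 55.2% for Ifit3b, 46.0% for Ifi204, 25.0% for Herc6, 20.5% for Ifi203, 17.1% for Phf11d, 14.5% for Rtp4, 12.8% for Isg15, 11.8% each for Mx2 and Trim30a and 10.5% for Ifit1, so the values of these genes are uncertain. No other gene of the 37 was above 10%. The leading transcript of Oas1g, Mx1, Mx2 and Oasl2 is not annotated as coding. It is a retained-intron form for Oas1g and Mx1, a form marked for nonsense-mediated decay for Oasl2, and a polymorphic pseudogene for Mx2. Oas1g-202, that form of Oas1g, took 0%, 0% and 22.4% of its TPM in the Healthy libraries and did not lead there. Its share was 68.3%, 56.5% and 44.8% across the PanIN libraries, then 94.9%, 100% and 72.5% across the Tumor libraries. Coding forms of Oasl2 averaged 24.0 ± 24.1% (SD) of its TPM for Healthy, 12.1 ± 12.1% for PanIN, 4.72 ± 1.23% for Tumor. Coding forms of Mx1 averaged 30.8 ± 5.95%, 20.1 ± 2.96% and 24.7 ± 8.65% of its TPM in Healthy, PanIN and Tumor, and those of Mx2 averaged 0%, 8.58% and 0%. Mx1-208, the leading form of Mx1 over all libraries, took 0% in Tumor 2. The levels of Oas1g, Oasl2, Mx1 and Mx2 above, and the rule that Oasl2 and Mx1 met, used all forms summed. Coding forms alone were not tested. The transcript Isg20-202, the leading form of Isg20, took 77.8%, 79.3% and 57.6% of the gene's TPM in the Healthy libraries, 57.4%, 50.1% and 68.4% in the PanIN libraries, and 19.0%, 0% and 0% in the Tumor libraries. The Tumor libraries thus lay below all others in the share of this form. Xaf1-202 took 69.0%, 48.3% and 49.7% of Xaf1 TPM in the Healthy libraries, 24.7%, 22.4% and 30.3% in the PanIN libraries, and 24.0%, 41.9% and 34.7% in the Tumor libraries, with Healthy above all others. These shares were estimated by the authors' quantifier and were not tested.

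Of 21 listed interferon genes, 15 were listed at 0 in all 9 libraries, among them Ifnb1, and 1, Ifng, passed the filter. The summed level of the 21 was 0 to 0.872 CPM in Healthy, 0.405 to 0.838 CPM in PanIN and 0.356 to 0.782 CPM in Tumor. The 3 ranges overlapped.

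Of the 11 receptor and transcription factor genes, 10 were above 0 in PanIN against Healthy (42.5% of all genes) and none passed the test. Their median log2 fold change was 0.48, and 5 had an unadjusted p under 0.05, all higher (4.82% of all genes). In Tumor against Healthy 9 were above 0 (43.5% of all genes) and the median was 0.29. Stat2, part of the factor that binds the response element, stood at 72.5, 101 and 57.3 CPM in Healthy, 106, 231 and 277 CPM in PanIN, and 87.5, 117 and 146 CPM in Tumor. PanIN lay above every Healthy library, and Tumor overlapped both. Irf7, which amplifies interferon production, stood at 77.9, 149 and 52.2 CPM in Healthy, 149, 328 and 355 CPM in PanIN, and 96.7, 182 and 137 CPM in Tumor, with PanIN 1 level with Healthy 2. The log2 fold changes in PanIN against Healthy were 1.41 for Stat2 and 1.58 for Irf7, and in Tumor against PanIN they were -0.81 and -1.0.

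Irf9, of the same factor, and the receptor had smaller fitted values. Irf9 had log2 fold changes of 0.32 in PanIN and 0.04 in Tumor, each against Healthy, and the receptor subunit Ifnar1 had 0.48 and 0.10. Irf1 had log2 fold changes of 0.86 in PanIN and 1.18 in Tumor, each against Healthy, and Irf3 had 0.58 and 0.70. In Tumor against PanIN the values were 0.32 ± 0.37 (SE) for Irf1 and 0.12 ± 0.23 for Irf3, and both genes overlapped between these stages.

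Upstream of interferon, 12 of 13 listed sensors and adaptors passed the filter, and none passed the test in any comparison. In PanIN against Healthy 10 of the 12 were above 0 (42.5% of all genes). An unadjusted p under 0.05 was found for 2 higher (4.82% of all genes) and 0 lower (5.65%). Tlr9, the endosomal DNA receptor, stood at 65.2, 139 and 64.4 CPM in Healthy, 54.3, 110 and 100 CPM in PanIN, and 24.7, 39.4 and 37.7 CPM in Tumor. Its Tumor libraries lay below all libraries of both other stages, with a log2 fold change of -1.40 in Tumor against Healthy and -0.02 in PanIN against Healthy. Tmem173 (STING), the adaptor of the cytosolic DNA pathway, stood at 55.3, 70.5 and 52.9 CPM in Healthy, 69.6, 90.0 and 106 CPM in PanIN, and 90.6, 113 and 90.0 CPM in Tumor, and its log2 fold changes were 0.57 in PanIN and 0.71 in Tumor, each against Healthy. Tmem173 was thus high in Tumor while Tlr9 was low. Over the list, 7 of the 12 were above 0 in Tumor against Healthy (43.5% of all genes) and 5 below (56.5%), with a median of 0.13. In that comparison 2 had an unadjusted p under 0.05 as higher (6.82% of all genes) and 1 as lower (11%).

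All 9 listed feedback inhibitors were above 0 against Healthy in both PanIN (median 0.51) and Tumor (median 0.52). Among all genes 42.5% and 43.5% were above 0. An unadjusted p under 0.05 was found for 4 and 6 of the 9, all higher, against 4.82% and 6.82% of all genes. None was called. Isg15 and Usp18, also among the 37 genes, are in both counts. Socs3, an inhibitor of Jak signalling, stood at 14.2, 12.9 and 11.8 CPM in Healthy, 22.1, 30.7 and 37.6 CPM in PanIN, and 38.2, 25.2 and 30.5 CPM in Tumor. Both later stages lay wholly above Healthy and overlapped each other. Socs1 had log2 fold changes of 0.85 in PanIN and 1.15 in Tumor, each against Healthy.

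The relatives of the 37 genes were less uniform. Of 43 relatives listed, 32 passed the filter and none was called. In PanIN against Healthy 27 were above 0 (median 0.76), with an unadjusted p under 0.05 for 12 higher (all genes 4.82%) and 0 lower (5.65%). In Tumor against Healthy 23 were above 0 (median 0.24), with 7 higher (6.82%) and 3 lower (11%). In Tumor against PanIN 6 were above 0 (median -0.44), with 0 higher (2.02%) and 5 lower (2.52%). Among all genes, the shares above 0 were 42.5%, 43.5% and 45.8%. Ifi213, another Aim2-like gene, stood at 6.25, 3.88 and 3.94 CPM in Healthy, 9.37, 27.8 and 21.2 CPM in PanIN, and 6.31, 7.48 and 3.51 CPM in Tumor, and Mndal had log2 fold changes of 1.56 in PanIN and 0.55 in Tumor, each against Healthy. Uba7, the enzyme that activates ISG15, stood at 142, 79.0 and 77.6 CPM in Healthy, 196, 201 and 246 CPM in PanIN, and 217, 150 and 300 CPM in Tumor. Uba7 thus stood wholly above Healthy in both later stages, as did Isg15 itself. Phf11c had log2 fold changes of 1.14 and 0.95 against Healthy in PanIN and in Tumor.

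Markers of other cells also differed between the stages. The 10 cDC1 markers had a median log2 fold change of 0.04 in PanIN and -0.14 in Tumor, each against Healthy. Of 10 neutrophil markers, 7 passed the filter, all above 0 in PanIN against Healthy (median 5.43), and their list summed to 2.68 to 5.13 CPM in Healthy, 4.08 to 47.9 CPM in PanIN and 3.23 to 9.88 CPM in Tumor. The excess was in PanIN 2 (47.9) and PanIN 3 (32.6), the libraries with the highest effector levels. In PanIN 1 the neutrophil sum was 4.08 CPM, within the Healthy range, with Ltf and Retnlg at 0, and the mean log2 CPM of the 37 effectors was 4.40, above every Healthy library. All 11 B cell markers were above 0 in PanIN against Healthy (median 2.22), summing to 34.9 to 37.1 CPM in Healthy, 33.5 to 290 CPM in PanIN and 30.8 to 76.3 CPM in Tumor. The B cell excess was in PanIN 2 (290 CPM), while PanIN 3 held 33.5 CPM, below every Healthy library, and an effector mean of 5.14. The part of neutrophils and B cells in the effector levels was not tested.

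The 10 markers of mature dendritic cells were highest in Tumor, with medians of 1.38 in Tumor against Healthy and 0.59 in PanIN against Healthy. They summed to 957 to 6850 CPM in Healthy, 3300 to 7830 CPM in PanIN and 7140 to 13400 CPM in Tumor, and none was at 0 in any stage. Their part in the levels that stayed high in Tumor was not tested. The 7 plasma cell markers summed to 91.9 to 154 CPM in Healthy, 136 to 202 CPM in PanIN and 132 to 340 CPM in Tumor, the highest being Tumor 1. The 11 epithelial and acinar markers summed to 7.50 to 11.6, 11.8 to 18.2 and 6.96 to 86.5 CPM in Healthy, PanIN and Tumor, again with Tumor 1 highest. Genes of this list went different ways. Krt19, an epithelial keratin gene, stood at 22.0 CPM in Tumor 1 and at no more than 0.697 CPM elsewhere. Ctrb1, an acinar enzyme gene, stood at 0.0291, 0.0262 and 0.268 CPM in Healthy and 6.21, 3.67 and 1.11 CPM in PanIN. In Tumor it stood at 0.235, 0.143 and 0.223 CPM. In PanIN against Healthy 6 of the 9 tested were above 0 (42.5% of all genes) and 3 below. The part of these markers was not tested. Siglech, a marker of plasmacytoid dendritic cells, the main interferon producers, ran between 1.02 and 5.86 CPM over all libraries, and its list had medians of 0.17 in PanIN and -0.02 in Tumor, each against Healthy. The medians in PanIN and in Tumor against Healthy were -0.55 and -0.29 for 7 cDC2 markers, -0.43 and -0.36 for 11 of monocytes and macrophages, and 0.17 and 0.46 for 11 of T and NK cells. The T and NK cell markers summed to 228, 94.5 and 39.6 CPM in Healthy, 218, 128 and 45.1 CPM in PanIN, and 334, 103 and 37.8 CPM in Tumor. They were thus highest in the library of each stage that shares the title code, and their part was not tested.

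The 3 libraries that share a title code gave the same order with smaller differences. Within them, 35 of the 37 genes were above 0 in PanIN against Healthy (median 0.69), 29 in Tumor against Healthy (0.45) and 11 in Tumor against PanIN (-0.32), with 1 library per stage and no test. In the 6 other libraries the medians were 1.34, 0.55 and -0.96. Within the shared code the OAS median was 1.23 in PanIN and 1.19 in Tumor, each against Healthy, the RNA sensors had a PanIN against Healthy median of 0.03, and the IFIT median in Tumor against Healthy was -0.06.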

How the data were processed

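RNA was extracted from cDC1 with a column micro kit and made into libraries with a directional kit, per the labels' protocols. The authors deposited estimated counts and TPM (levels per transcript length) per transcript for 9 libraries. Salmon and mm10 are named in the submitters' processing notes; its version, its settings and any use of strand were not given in the sources used here. Deposited table names mention sailfish, another quantifier, and which tool made the values was not settled. Those estimated counts carry no normalization, and transcripts that resemble each other share reads by a model.

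Of 136288 transcripts, 136176 matched the GENCODE M21 annotation of GRCm38 by identifier; the 112 others were left out, and matched transcripts held at least 99.963% of each library's counts. Summing over transcripts gave 53458 genes, whose counts were then rounded. Genes were kept with edgeR's filterByExpr (minimum count 10, minimum total 15). One quasi-likelihood fit (edgeR 4.0.16, R 4.3.3; TMM factors 0.83 to 1.19) used all 9 libraries with stage as the only term, and p-values were adjusted by Benjamini-Hochberg over all 24133 genes, and called under 0.05. The fit's common biological coefficient of variation stood at 56.5%. CPM use TMM factors, and log2 CPM a prior count of 2. The test was tried on simulated counts. Promoter windows were RefSeq's.

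The text names all 37 genes, up to 4 genes of each other list by smallest p for any difference, and a set of dendritic cell and interferon pathway genes. Not every gene under that rule is reported here. Members and lists were chosen with earlier results of these data known. Alternatives were DESeq2 1.42.0, RLE factors, no filter and a filter of 50 counts in 3 libraries, limma 3.58.1 on log2(TPM + 1) and log2(TPM + 0.1), subsets of the libraries, and a title-code term (1 code is shared by 3 libraries, 1 per stage). Tables used Python 3.11.15 and pandas 2.3.3, and figures matplotlib 3.10.9.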

Additional observations from a re-analysis of the deposited data

How the results depend on the processing

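No paired analysis was possible because the labels carry no replicate numbers and only 1 title code is shared between the stages; a term for that code, fitted in its place, gave medians of 1.13, 0.51 and -0.73 in PanIN against Healthy, Tumor against Healthy and Tumor against PanIN. The medians of the 37 genes kept their direction under every alternative, with PanIN against Healthy between 0.69 and 1.59, Tumor against Healthy between 0.32 and 0.56, and Tumor against PanIN between -1.07 and -0.32; leaving out each library in turn gave 1.02 to 1.59, 0.32 to 0.56 and -0.96 to -0.62. Counts of called genes did not hold. In PanIN against Healthy, 0 genes were called in the fit reported, against 196 with DESeq2, 123 with no filter, 4 on log2(TPM + 1), 3 on log2(TPM + 0.1), 1 in the 6 libraries outside the shared title code, 3 without Healthy 2 and Healthy 3 together, and 0 to 6 leaving out each library in turn. In Tumor against Healthy, 6 were called, against 1607 with DESeq2, 1041 with no filter, 3 with at least 50 counts in 3 libraries, and 2 to 2177 leaving out each library (2177 without Healthy 2). In Tumor against PanIN, 3 were called, against 30 with DESeq2, 33 with no filter, 1 with at least 50 counts, 1 with a term for the title code, 0 in the 6 libraries of the 2 stages, and 1 to 7 leaving out each library. Of the 37 genes, 18 were called for any difference with no filter, and 0 to 18 leaving out each library. The rule for staying high was met by 5 genes on log2(TPM + 1) and by 9 to 15 leaving out each library. The causes were not tested.

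Some log2 fold changes changed sign. In Tumor against Healthy these were, in the 6 libraries outside the shared code, Oas2 (-0.19), Ifi44 (0.23) and Rtp4 (-0.21); on log2(TPM + 0.1), Ddx58 (0.38), Ifih1 (-0.24), Ddx60 (0.43) and Trim30a (0.01); on log2(TPM + 1), Ddx58 (0.24), Ifih1 (-0.21), Ddx60 (0.13) and Trim30a (0.01); and without Healthy 2 and Healthy 3 together, the IFIT median (0.14), Ifit3b (0.35), Eif2ak2 (0.24) and Trim30a (0.19). In Tumor against PanIN they were Bst2 (-0.21) and Ifi35 (-0.07) on either TPM scale, and the median of the nucleotide and RNA enzymes (0.02) in the 3 libraries of the shared code. Those 3 libraries, 1 per stage and with no test, also turned single genes: in PanIN against Healthy Ifit3b (-0.22) and Samd9l (-0.07); in Tumor against Healthy Ifit3b (0.54), Ddx58 (0.13), Ifih1 (-0.15), Ddx60 (0.20) and Ifi203 (0.07); and in Tumor against PanIN Ifit3b (0.76), Oasl1 (0.29), Oasl2 (0.28), Ifi27l2a (0.23), Isg15 (0.22), Rtp4 (0.19), Ddx60 (0.17), Rsad2 (0.17) and Isg20 (0.02). Leaving out each library in turn gave, in Tumor against Healthy, -0.89 to 0.48 for Ifi44, -0.30 to 0.45 for Rtp4, -0.24 to 0.16 for Ddx58, -0.75 to 0.38 for Ddx60, -0.49 to 0.40 for Trim30a, -0.16 to 0.27 for Eif2ak2, -0.14 to 0.10 for Ifi203 and -1.24 to 0.21 for Ifit2, and in Tumor against PanIN -0.29 to 0.08 for Oasl1 and -0.13 to 0.03 for Isg15. Leaving out Healthy 2 and Healthy 3 together, and the alternatives for any difference, were chosen after seeing the data. Depth limits Oas1g (0.131 CPM in Healthy 2) and Ifit3b most.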
